A study of Mus musculus with 12 samples.

Results

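The ligands of the B7 family were followed in RNA sequencing of mouse heart: Cd274 (PD-L1), Pdcd1lg2 (PD-L2), Cd80, Cd86, Cd276 (B7-H3), Vsir (VISTA) and Icosl. The 7 genes were chosen by name, as the rows of the expression table that carry these symbols, out of 34714 genes. The hearts came from a mouse melanoma model of cardiac toxicity after anti-PD-1, an antibody that blocks the receptor PD-1. Libraries labelled aPD1_lef (n = 4) were from mice given anti-PD-1 and leflunomide, an immunosuppressant that inhibits pyrimidine synthesis. Those labelled aPD1_veh (n = 4) were from mice given anti-PD-1 and, as the abbreviation was read, vehicle. Those labelled IgG_lef (3 of 4 labelled libraries used here) were from mice given a control antibody and, by their label, leflunomide. A group with control antibody and vehicle was not analysed here. The aPD1_veh and IgG_lef groups therefore differ in antibody and in drug at once, and these cannot be told apart. The labels used here give no strain, age or dose. Nor do they tie libraries to separate animals, so p-values measure only the spread between these libraries, which may be technical.

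B7 ligands are membrane proteins that set how strongly T cells respond. Cd80 and Cd86 on antigen-presenting cells bind CD28, which drives T cells, and CTLA-4, which restrains them. PD-L1 and PD-L2 bind PD-1 and restrain T cells, and PD-L1 is strongly induced by interferon in endothelial, muscle and immune cells. The ICOS ligand drives helper T cells, VISTA restrains T cells and is carried mainly by myeloid cells, and B7-H3 is found on fibroblasts and many tumours. In mouse heart, loss of the PD-1 pathway is known to allow immune injury of the muscle.

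Cd274 and Pdcd1lg2 lie close together on chromosome 19 (GRCm38; Cd274 at 29362107 to 29388095, Pdcd1lg2 at 29410919 to 29472927), 22824 bases apart. The 250 bases before the start that RefSeq's promoter table (GRCm38.p6) gives for each gene are shown, because one of these neighbours was measured in every heart and the other was close to 0. The same stretch is shown for Cd276, which was higher in aPD1_lef than in aPD1_veh. The Cd274 window lies inside the span given above, since RefSeq's span begins further upstream than that start. Bases just after the start used were found in a GENCODE M21 transcript of the gene for Cd274 and Pdcd1lg2, but not for Cd276. Capitals mark the GC box GGGCGG, on either strand.

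Cd274, chr19:29367188-29367437, plus strand: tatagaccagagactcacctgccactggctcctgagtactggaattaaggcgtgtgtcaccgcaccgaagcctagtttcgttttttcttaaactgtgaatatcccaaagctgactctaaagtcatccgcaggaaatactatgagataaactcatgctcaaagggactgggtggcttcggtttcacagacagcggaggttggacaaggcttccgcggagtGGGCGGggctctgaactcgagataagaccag

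Pdcd1lg2, chr19:29410669-29410918, plus strand: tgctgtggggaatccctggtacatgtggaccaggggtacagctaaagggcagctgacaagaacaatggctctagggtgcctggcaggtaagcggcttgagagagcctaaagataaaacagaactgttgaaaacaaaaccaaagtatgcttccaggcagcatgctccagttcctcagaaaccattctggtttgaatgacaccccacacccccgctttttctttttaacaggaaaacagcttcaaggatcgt

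Cd276, chr9:58555034-58555283, minus strand: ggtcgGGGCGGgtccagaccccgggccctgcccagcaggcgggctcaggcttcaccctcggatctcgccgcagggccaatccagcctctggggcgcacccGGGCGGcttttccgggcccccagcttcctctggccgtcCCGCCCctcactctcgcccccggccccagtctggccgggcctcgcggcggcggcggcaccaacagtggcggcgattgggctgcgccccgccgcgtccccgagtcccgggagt

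The Cd274 window held 1 GC box, the Cd276 window 3 and the Pdcd1lg2 window 0, and 32.7% of all 32851 promoter windows of this length held at least 1. Of their bases, 50.4% were G or C in Cd274, 48.4% in Pdcd1lg2 and 77.6% in Cd276, against a median of 52.4% over all windows. The core of the interferon-stimulated response element, a pair of GAAA with any 2 bases between them, is in 2.98% of all windows on either strand. That core and the gamma-activated site TTCNNNGAA, which is in 7.02%, had 0 matches in the windows of Cd274, Pdcd1lg2, Cd80, Cd276, Vsir and Icosl. These are matches of letters in these windows only.

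Values were taken as FPKM (fragments scaled to transcript length and library size), a level per length. In bulk tissue, fewer cells of a type and less RNA per cell cannot be told apart. Over the 7 ligands, Vsir had the highest mean level in aPD1_lef and aPD1_veh, at 12.1 ± 1.31 and 12.48 ± 3.46 FPKM, and Cd274 the highest in IgG_lef, at 16.2 ± 4.65 FPKM (SD). In aPD1_lef the order below Vsir was Icosl, Cd274, Cd276 and Cd86, whose neighbours overlapped in range, then Cd80 and Pdcd1lg2, each apart from the one above. In aPD1_veh, Icosl and Cd274 overlapped, as did Cd86, Cd276 and Cd80 with their neighbours, and Cd274 lay apart from Cd86. In IgG_lef, Cd274 and Vsir overlapped, and so did Cd86 and Cd276. The FPKM of the 7 genes summed to 28.6 to 32.1 in aPD1_lef, 22.6 to 34 in aPD1_veh and 33.2 to 46.8 in IgG_lef. Cd274 made up 12.2% to 20.9% of that sum in aPD1_lef and 13.5% to 27.1% in aPD1_veh, against 34.9% to 44.7% in IgG_lef. A gene was tested if it reached 1 FPKM in at least 4 libraries, which 12005 genes and 6 of the 7 ligands did.

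**Figure D1:**
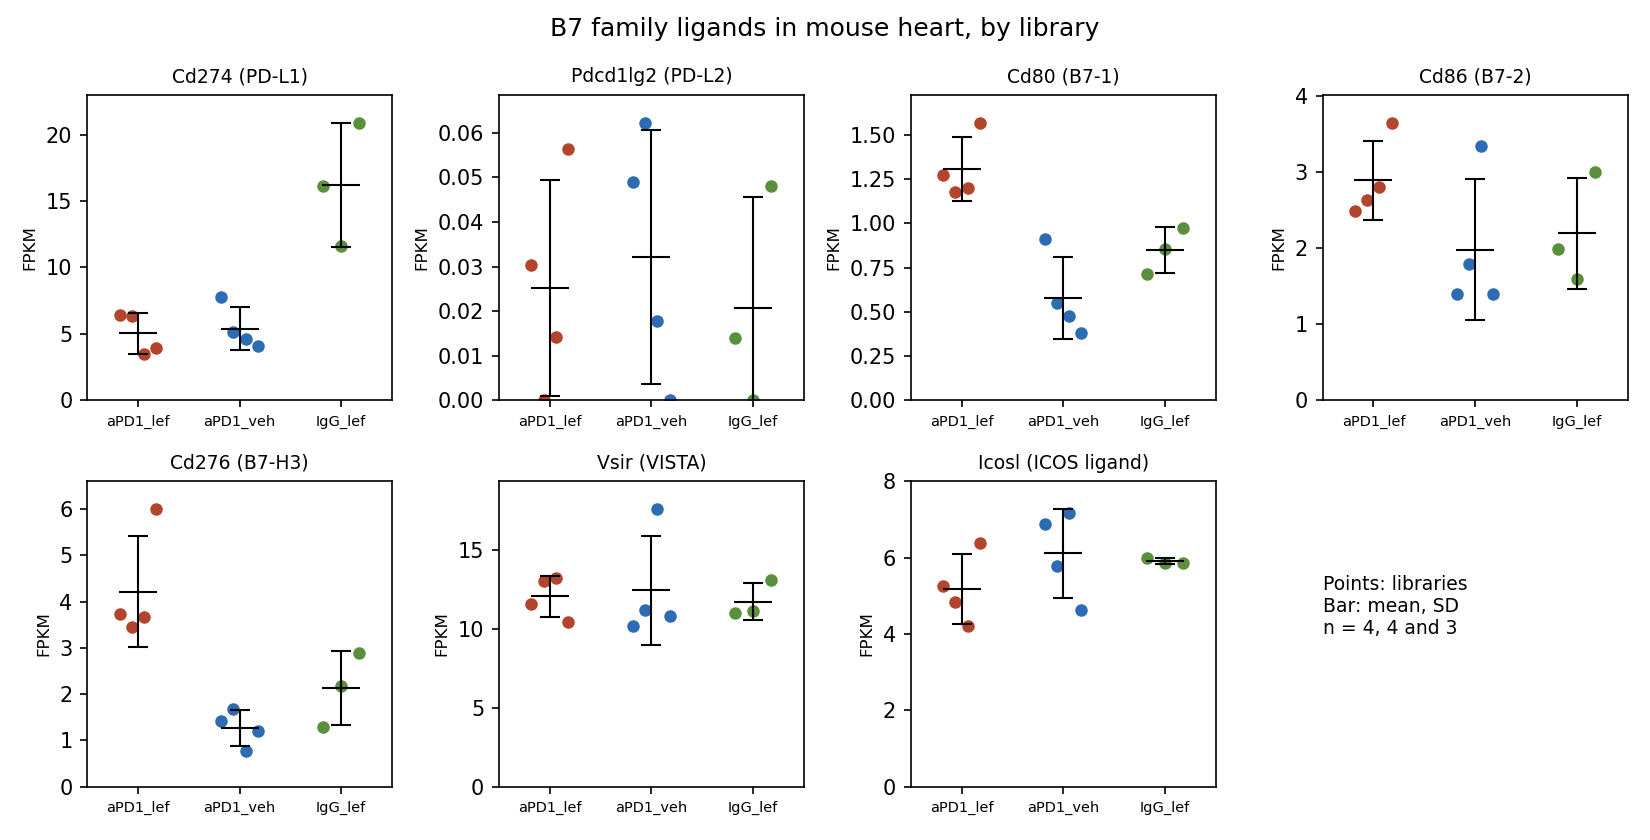
FPKM of each B7 family ligand (vertical axes, each from 0) in every library of aPD1_lef, aPD1_veh and IgG_lef; points are libraries and bars the mean and SD. Cd274 stood at 11.6 FPKM or more in the 3 IgG_lef libraries and at 7.74 or less in the other 8, while Cd276 and Cd80 were highest in aPD1_lef.

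Cd274 was lower in both groups given anti-PD-1 than in IgG_lef, and the groups given anti-PD-1 overlapped. In aPD1_lef it stood at 6.43, 6.31, 3.49 and 3.94 FPKM, in aPD1_veh at 7.74, 5.13, 4.6 and 4.11, and in IgG_lef at 16.1, 11.6 and 20.9. Every library of either group given anti-PD-1 lay below every IgG_lef library, as 7.91% of all genes tested did in aPD1_veh and 11.4% in aPD1_lef. In aPD1_veh against IgG_lef, which differ in antibody and drug, the mean was 0.333 of that in IgG_lef and Cd274 fell by 1.42 ± 0.251 (SE) on the scale of log2(FPKM + 1), with adjusted p = 0.0234 by limma. In aPD1_lef against IgG_lef, which differ in antibody as labelled, the mean was 0.311 of that in IgG_lef and Cd274 fell by 1.51 ± 0.251 (adjusted p = 0.0191). These comparisons share the IgG_lef libraries. For aPD1_lef against aPD1_veh, which differ in drug, the difference was -0.09 ± 0.232, with a 95% interval from -0.60 to 0.43 (adjusted p = 0.797).

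Cd274 was the only ligand of the 6 tested that passed in the comparisons with IgG_lef. In aPD1_veh against IgG_lef, 1 of 6 ligands fell and none rose, where 0.925% of all genes tested fell, 0.242% rose and 1.17% passed in either direction. In aPD1_lef against IgG_lef, 1 of 6 fell and none rose, where 2.01% of all genes fell, 5.15% rose and 7.16% passed. The median log2 difference of the 6 ligands was -0.18 in the comparison of aPD1_veh and 0.17 in that of aPD1_lef, against 0.01 and 0.03 over all genes tested. The call of Cd274 in aPD1_veh against IgG_lef was lost with no filter on low values (adjusted p = 0.0522). It was also lost without aPD1_veh replicate 2 (0.0787), 3 (0.074) or 4 (0.077) and without IgG_lef replicate 1 (0.0862) or 3 (0.13). In aPD1_lef against IgG_lef the call was lost without aPD1_lef replicate 3 (0.0612) or IgG_lef replicate 1 (0.12), and in a fit of only these 2 groups (0.075). Over the alternatives tried, the difference lay between -1.63 and -1.23 for aPD1_veh and between -2.04 and -1.32 for aPD1_lef.

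Pdcd1lg2 (PD-L2), the other ligand of PD-1, did not reach 0.1 FPKM in any library and was under the filter. It stood at 0.0305, 0, 0.0142 and 0.0564 FPKM in aPD1_lef, at 0.0489, 0.0623, 0.0177 and 0 in aPD1_veh and at 0.0141, 0 and 0.0482 in IgG_lef. The groups overlapped, and 3 of 11 libraries were listed at 0. With no filter it passed in none of the 3 comparisons (adjusted p = 0.832 for aPD1_lef against aPD1_veh, 0.937 for aPD1_veh and 0.932 for aPD1_lef against IgG_lef). Read depth is unknown, so values this low cannot be given a detection limit.

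Among the ligands of CD28 and CTLA-4, Cd80 (chromosome 16, 38457430 to 38495958) was higher in aPD1_lef than in aPD1_veh, at a low level. It stood at 1.275, 1.17, 1.2 and 1.57 FPKM in aPD1_lef, at 0.911, 0.549, 0.474 and 0.378 in aPD1_veh and at 0.716, 0.854 and 0.973 in IgG_lef. Every aPD1_lef library lay above every library of the other groups. The same held for 20.6% of all genes tested against aPD1_veh and for 15.3% against IgG_lef. Cd80 reached 1 FPKM only in the 4 aPD1_lef libraries and so passed the filter through the group in which it was high. In aPD1_lef against aPD1_veh its log2 difference was 0.55 ± 0.118, a rise that passed (adjusted p = 0.00701), and with no filter on low values it passed as well (adjusted p = 0.011). Against IgG_lef the difference of 0.32 ± 0.127 in aPD1_lef did not pass (95% interval 0.04 to 0.60, adjusted p = 0.125).

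Cd86 (chromosome 16, 36568956 to 36666158) passed in none of the 3 comparisons. It stood at 2.49, 2.64, 2.8 and 3.65 FPKM in aPD1_lef, at 1.395, 1.8, 3.34 and 1.394 in aPD1_veh and at 1.99, 1.59 and 3 in IgG_lef. The groups overlapped, aPD1_lef with the others only through aPD1_veh replicate 3 and IgG_lef replicate 3. The difference of aPD1_lef from aPD1_veh was 0.42 ± 0.204 (95% interval -0.03 to 0.87, adjusted p = 0.135), and without aPD1_veh replicate 3 it was 0.62 and passed (adjusted p = 0.0256). The level of Cd86 was 1.96 to 2.34 times that of Cd80 in aPD1_lef libraries, 1.53 to 7.05 times in aPD1_veh libraries and 1.86 to 3.09 times in IgG_lef libraries.

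Cd276 (B7-H3; chromosome 9, 58524300 to 58555033) showed the largest difference of the 6 ligands between aPD1_lef and aPD1_veh. It stood at 3.74, 3.45, 3.68 and 6 FPKM in aPD1_lef, at 1.42, 1.67, 0.771 and 1.21 in aPD1_veh and at 1.29, 2.18 and 2.89 in IgG_lef. Every aPD1_lef library lay above every library of the other groups, and replicate 4 was the highest. Of all genes tested, 20.6% had every aPD1_lef library above every aPD1_veh library, and 15.3% had every aPD1_lef library above every IgG_lef library. The mean of aPD1_lef was 3.32 times that of aPD1_veh, with a rise of 1.19 ± 0.2 in log2 (adjusted p = 0.00245). Against IgG_lef the difference of aPD1_lef was 0.75 ± 0.216 (95% interval 0.27 to 1.22) and did not pass (adjusted p = 0.0586), though it passed with every library scaled to one total (adjusted p = 0.0489) and without aPD1_lef replicate 2 (0.0375). For aPD1_veh against IgG_lef it was -0.44 ± 0.216 (adjusted p = 0.477). In GENCODE M21, 416 of 3658 exon bases of Cd276 overlap the gene model Gm10657, and 511 of 3622 of Cd274 overlap AC119228.1, and the part of these models in the values was not tested.

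Vsir (VISTA; chromosome 10, 60346851 to 60430294) and Icosl (chromosome 10, 78069368 to 78079525) passed in no comparison. Vsir stood at 11.6, 13.05, 13.25 and 10.5 FPKM in aPD1_lef, at 10.2, 11.2, 17.6 and 10.9 in aPD1_veh and at 11, 11.1 and 13.1 in IgG_lef. Its groups overlapped, and the difference of aPD1_lef from aPD1_veh was -0.02 ± 0.153 (95% interval -0.35 to 0.32, adjusted p = 0.941). Icosl stood at 5.27, 4.835, 4.2 and 6.38 FPKM in aPD1_lef, at 6.89, 5.79, 7.17 and 4.62 in aPD1_veh and at 5.995, 5.865 and 5.857 in IgG_lef. Its groups overlapped as well, with a difference of -0.20 ± 0.135 between aPD1_lef and aPD1_veh (95% interval -0.50 to 0.10, adjusted p = 0.272).

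Between aPD1_lef and aPD1_veh, 2 of the 6 tested ligands rose (Cd276 and Cd80), none fell and 4 did not pass. Cd80 is among the 6 only through its level in aPD1_lef, so this count is a description and is not support for a rise of the ligands. Over all genes tested, 18.2% were higher and 14.3% lower in this comparison (32.4% in either direction), and 20.6% had every aPD1_lef library above every aPD1_veh library. The median log2 difference was 0.20 over the 6 ligands and 0.04 over all genes tested, and scaling every library to one total moved the median of all genes to 0.17. Under that scaling Cd276 and Cd80 passed as well, whereas the differences of Cd274 and Vsir, which passed under no setting here, changed sign.

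**Figure D2:**
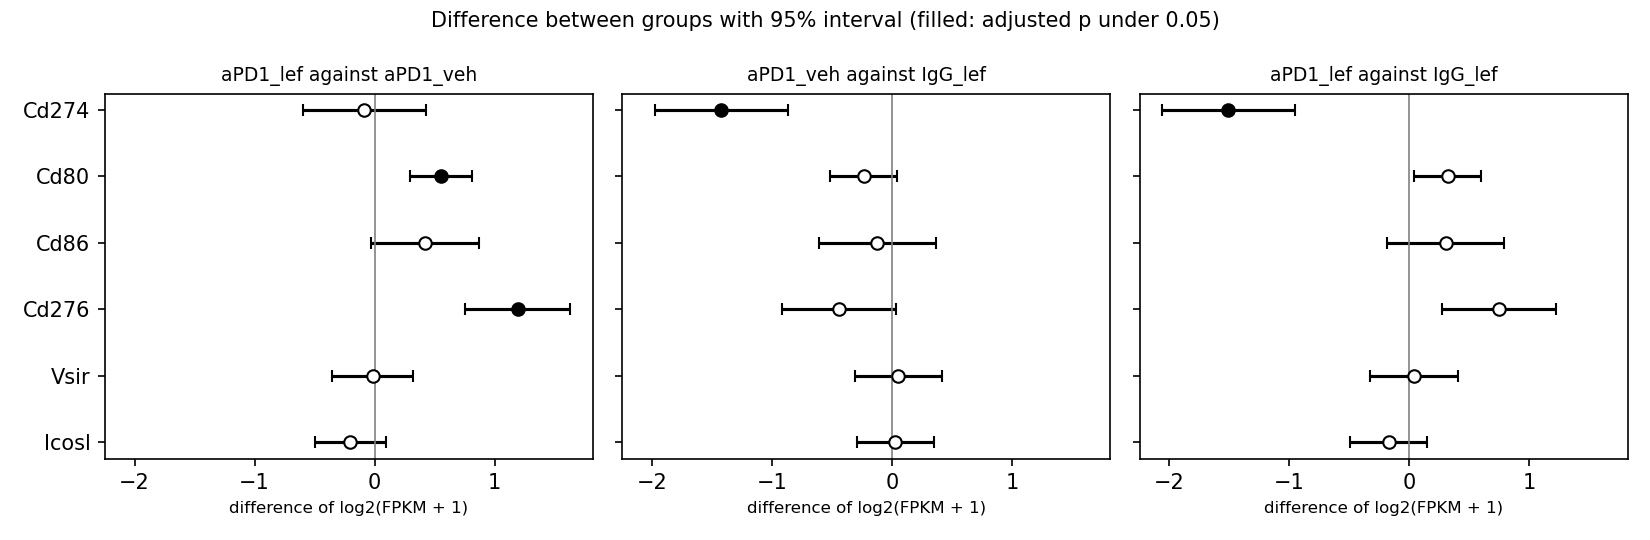
Difference of log2(FPKM + 1) between groups (horizontal axes) for the 6 tested ligands in the 3 comparisons, with 95% intervals from limma; filled points have an adjusted p under 0.05. Cd276 and Cd80 lie to the right in aPD1_lef against aPD1_veh (1.19 and 0.55), and Cd274 to the left in both comparisons with IgG_lef (-1.42 and -1.51).

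Among the receptors of these ligands, Pdcd1, which encodes PD-1, stood at 0 to 0.445 FPKM in aPD1_lef, 0 to 0.139 in aPD1_veh and 0.0201 to 0.0901 in IgG_lef. Ctla4 stood at 0.128 to 0.298 FPKM in aPD1_lef, 0.388 to 1.12 in aPD1_veh and 0.398 to 0.811 in IgG_lef, and Icos did not reach 0.16 in any library. These and Igsf11, a binding partner of VISTA, were under the filter. Cd28, the receptor that drives T cells, fell by 0.48 ± 0.111 on the log2 scale in aPD1_lef against aPD1_veh (adjusted p = 0.00984), with 0.585 to 0.773 FPKM against 0.896 to 1.61. It reached 1 FPKM in no aPD1_lef library and so passed the filter through the groups in which it was high, and with no filter it passed as well (adjusted p = 0.0149). Of the other tested partners, Selplg, which binds VISTA, averaged 4.54 ± 2.26, 3.58 ± 0.752 and 5.08 ± 3.48 FPKM in aPD1_lef, aPD1_veh and IgG_lef, and Rgmb, a partner of PD-L2, averaged 8.35 ± 2.06, 7.68 ± 0.408 and 8.09 ± 0.892. Neither passed in any comparison.

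Of 9 other B7 and butyrophilin genes in the table, only Btnl9 passed the filter. This relative of the B7 ligands, which is expressed in endothelial cells, averaged 10.8 ± 7.49 FPKM in aPD1_lef and 27 ± 4.53 in aPD1_veh, and 10.5 ± 1.82 in IgG_lef. It fell by 1.60 ± 0.518 on the log2 scale in aPD1_lef against aPD1_veh (adjusted p = 0.0371), where its groups did not overlap. Of all genes tested, 15.5% likewise had every aPD1_lef library below every aPD1_veh library. Of 10 tested genes of other checkpoint pairs, 2 rose, 1 fell and 7 did not pass in this comparison. Of all genes tested, 18.2% rose and 14.3% fell there, so these counts lie near the share of all genes. Those that rose were Fgl2, a ligand of an inhibitory Fc receptor, at 58.9 ± 23.7 against 11.4 ± 2.87 FPKM (2.23 ± 0.343 on the log2 scale, adjusted p = 0.00165), and Lgals9 (galectin-9), a ligand of TIM-3, at 48.8 ± 14.3 against 20 ± 2.54 (adjusted p = 0.00255). Ceacam1, an adhesion receptor, fell, at 6.02 ± 0.896 against 8.52 ± 1.77 FPKM (adjusted p = 0.0356). In aPD1_veh against IgG_lef, where 0.925% of all genes tested fell, 1 of the 10 fell, Lgals9 (20 ± 2.54 FPKM in aPD1_veh and 49.8 ± 11.1 in IgG_lef, adjusted p = 0.0224). In aPD1_lef against IgG_lef, where 7.16% of all genes tested passed, none of the 10 did, Fgl2 coming nearest (1.22 ± 0.37, adjusted p = 0.065). The calls of Btnl9, Ceacam1 and, against IgG_lef, Lgals9 were each lost on leaving out any of several single libraries, with adjusted p up to 0.0809, 0.0783 and 0.13.

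Genes listed for interferon signalling or for the control of PD-L1 differed among themselves. Of 21 tested genes of interferon signalling and control of PD-L1, 6 rose and none fell in aPD1_lef against aPD1_veh, where 18.2% of all genes tested rose and 14.3% fell. Without aPD1_lef replicate 1 or 2 or aPD1_veh replicate 2, 3 or 4, 3 of the 21 rose. Ifngr1, a chain of the interferon-gamma receptor, averaged 60.7 ± 4.55 FPKM in aPD1_lef and 38.6 ± 4.03 in aPD1_veh (adjusted p = 0.0021), and the NF-kB precursor Nfkb1 averaged 18.5 ± 0.546 and 12.7 ± 0.208 (adjusted p = 0.00233). Stat2 (9.79 ± 3.71 and 4.85 ± 0.782 FPKM) and Irf9 (18.8 ± 6.36 and 10.8 ± 2.12) were also among the 6 that rose. Each could lose its call on leaving out a single library, with adjusted p up to 0.0919 and 0.1045 by limma. In aPD1_veh against IgG_lef, where 0.925% of all genes tested fell, 2 of the 21 fell and none rose. These were Stat2, at 4.85 ± 0.782 against 22.5 ± 8.28 FPKM, and Irf9, at 10.8 ± 2.12 against 35.2 ± 7.4, which together carry the type I interferon signal. When aPD1_lef was set against IgG_lef, Stat2 fell (adjusted p = 0.0404), and Ifngr1 and Nfkb1 rose (adjusted p = 0.0215 and 0.0306). The median log2 difference of the 21 genes was 0.21, -0.07 and -0.01 in the 3 comparisons in this order. Without IgG_lef replicate 3, 0 of the 21 passed in aPD1_veh against IgG_lef, and 0 passed in aPD1_lef against IgG_lef without aPD1_lef replicate 3, without IgG_lef replicate 1 or in a fit of only these 2 groups.

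Of 16 tested targets of interferon gamma, 5 fell and none rose in aPD1_veh against IgG_lef, and 8 fell and none rose in aPD1_lef against IgG_lef, with median log2 differences of -1.40 and -1.35. Of all genes tested, 0.925% and 2.01% fell in these comparisons. Between aPD1_lef and aPD1_veh, where 18.2% of all genes tested rose and 14.3% fell, 1 of the 16 rose and none fell, with a median of 0.01. The one that rose was the guanylate-binding protein Gbp3, which averaged 14 ± 4.93 FPKM in aPD1_lef and 6.66 ± 1.35 in aPD1_veh, and 38.4 ± 10.1 in IgG_lef. Its rise was lost without aPD1_veh replicate 4 (adjusted p = 0.0552). Without IgG_lef replicate 3, 0 of the 16 targets passed in aPD1_veh against IgG_lef. In aPD1_lef against IgG_lef 0 passed without aPD1_lef replicate 3, without IgG_lef replicate 1 or in a fit of only these 2 groups.

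Among the genes most like Cd274 over the 11 libraries, by Pearson's r of log2(FPKM + 1), were Cxcl9 (r = 0.973), Tgtp1 (0.956), Irgm1 (0.956), Tgtp2 (0.952), Uba7 (0.946), Gbp4 (0.94) and Iigp1 (0.929). Cxcl9 is a chemokine induced by interferon gamma, Tgtp1, Tgtp2, Irgm1, Gbp4 and Iigp1 are interferon-induced GTPases and Uba7 activates the ubiquitin-like protein ISG15. Tgtp1 and Tgtp2 are near-identical copies whose reads may be split between them. After the group means were subtracted, r was 0.894 for Cxcl9 and lay between 0.712 and 0.9 over these 7 genes. Cxcl9 averaged 2.54 ± 1.23 FPKM in aPD1_lef, 2.53 ± 0.855 in aPD1_veh and 7.32 ± 1.55 in IgG_lef. These libraries share groups, so r is a description of likeness.

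Those most like Cd276 were the collagen VI chain Col6a3 (r = 0.979), the collagen chaperone Serpinh1 (0.979) and the glycosyltransferase B3glct (0.978). Those most like Cd80 were the laminin chains Lama4 (0.986) and Lamc1 (0.968) and the natriuretic peptide gene Nppa (0.967). Cd276 and Cd80 were themselves alike (r = 0.92 over the 11 libraries), whereas Cd274 was like neither, with r = -0.141 and -0.015. The genes most like Cd86 were Lrp12 (0.948), Nrm (0.941) and the apolipoprotein Apoe (0.932), those most like Vsir were Wdr81 (0.965), Tesk2 (0.929) and Zfp646 (0.92), and those most like Icosl were Larp6 (0.942), Fcna (0.875) and Grina (0.856).

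**Figure D3:**
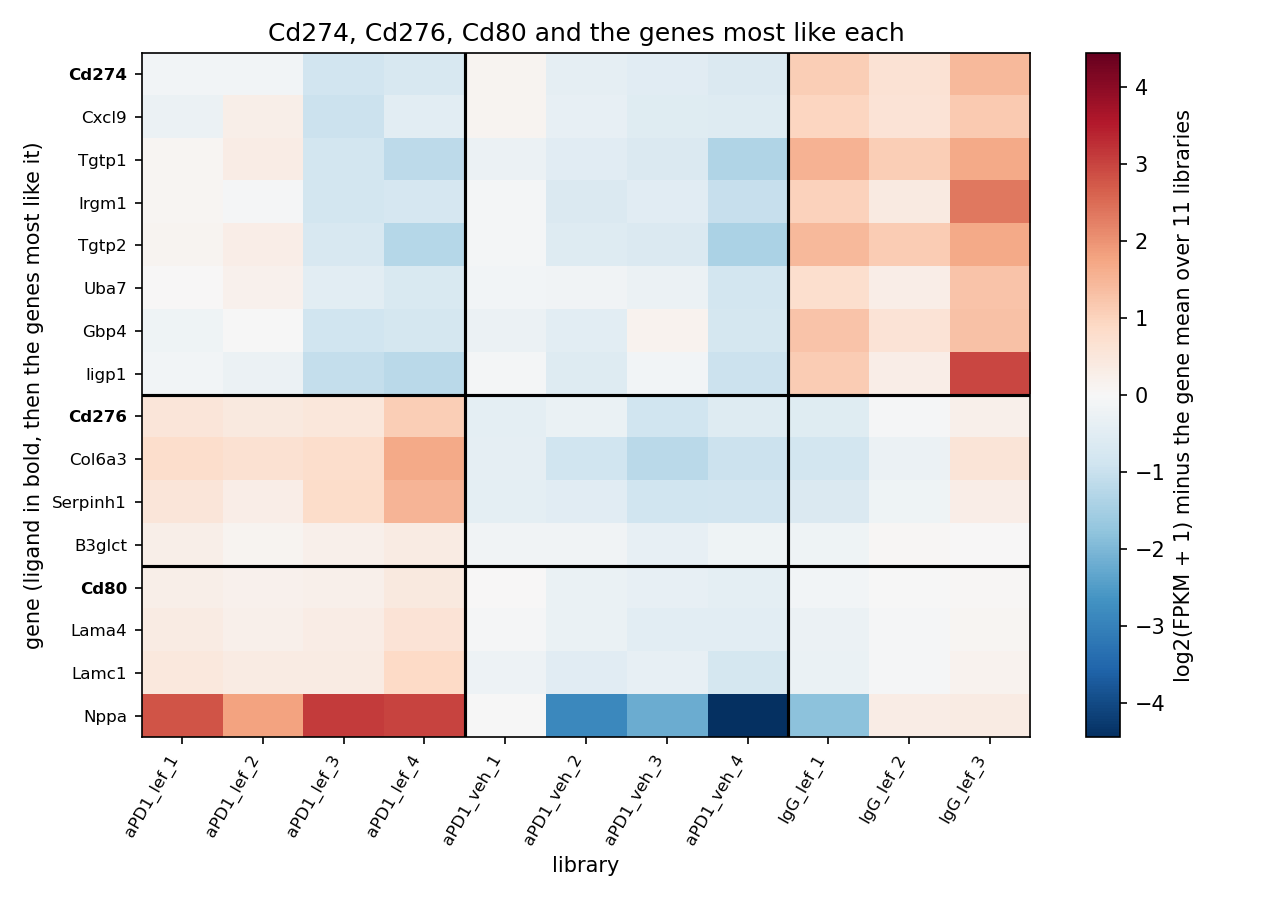
Each row is a gene and each column a library; colour is log2(FPKM + 1) minus the gene's mean over the 11 libraries, and lines separate the groups and the 3 ligands (bold) with genes most like each. Cd274 and its set are high in the 3 IgG_lef libraries, and Cd276, Cd80 and their sets are high in the 4 aPD1_lef libraries.

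Markers of the cells that could carry these ligands were summed in each library. Beside Cd274, the 10 endothelial markers summed to 459 to 557 FPKM in aPD1_lef and 492 to 541 in aPD1_veh, against 387 to 432 in IgG_lef. None of the 10 passed in any comparison. The means of single markers were lowest in IgG_lef too, except for Tek and Robo4. Tek averaged 18.8 ± 4.41 FPKM in aPD1_lef and 20.9 ± 1.15 in IgG_lef. Robo4 averaged 15.1 ± 2.15 FPKM in aPD1_veh and 15.8 ± 0.616 in IgG_lef. The 12 monocyte and macrophage markers summed to 473 to 881 FPKM in aPD1_lef, 319 to 677 in aPD1_veh and 378 to 1039 in IgG_lef, which overlap. Of these 12, the Fc receptor Fcgr1 rose in aPD1_lef against aPD1_veh and fell in aPD1_veh against IgG_lef (adjusted p = 0.0124 and 0.0222), and the other 11 did not pass. Of all genes tested, 18.2% rose in the former comparison and 0.925% fell in the latter. The fall of Fcgr1 did not pass without IgG_lef replicate 3 or without any 1 aPD1_veh library. The 11 T and NK cell markers in the table summed to at most 4.22 FPKM and the 5 B cell markers to at most 2.91, with no marker at 0 in all 11 libraries, and none of either list was at 1 FPKM in enough libraries to be tested. The 3 tested dendritic cell markers, of 10, did not pass.

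Beside Cd276 and Cd80, the 8 fibroblast markers summed to 1252 to 2271 FPKM in aPD1_lef and 428 to 631 in aPD1_veh, and to 683 to 1029 in IgG_lef. Of these 8, 7 rose in aPD1_lef against aPD1_veh, where 18.2% of all genes tested rose. Neutrophil markers summed to 3.01 to 51.6 FPKM in aPD1_lef (the highest in replicate 4) and 48.3 to 103 in aPD1_veh, and to 3.23 to 13.7 in IgG_lef. Of the 4 tested, 2 fell in aPD1_lef against aPD1_veh, where 14.3% of all genes tested fell. That count was 4 of 4 without aPD1_lef replicate 4. It was 0 of 4 without the 3 libraries in which Myl7, an atrial marker, was above 10 FPKM. The 8 cardiomyocyte markers, which check the tissue, summed to 10930 to 26230 FPKM in aPD1_lef and 27490 to 35150 in aPD1_veh, and to 27250 to 30430 in IgG_lef. This sum was thus lower in every aPD1_lef library than in any other. Of the single markers, Myh6, Tnni3, Ryr2, Pln and Mb lay lower in every aPD1_lef than in every aPD1_veh library, as 15.5% of all genes tested did. Actn2, Actc1 and Tnnt2 overlapped between these groups. In this comparison 3 of the 8 fell, where 14.3% of all genes tested fell. The cardiac myosin gene Myh6 stood at 244 FPKM in aPD1_lef replicate 4, where Cd276 was highest, against 1370 to 2795 in the other aPD1_lef libraries. The part of these cell types in the results on the ligands was not tested. Atrial markers differed between libraries too, with Myl7 above 10 FPKM in aPD1_lef replicates 1 and 2 and in IgG_lef replicate 2. Myl4 (45.8, 40.2 and 196 FPKM) and Sln (7.03, 9.67 and 86.8) were highest in the same libraries. Bmp10 was at most 0.0384 FPKM in any library, and Dkk3 stood at 15.7 and 13.7 in aPD1_lef replicates 3 and 4, against at most 2.32 in aPD1_veh. Whether the RNA of the 3 libraries with Myl7 above 10 FPKM came in part from atrial tissue was not tested. Without these 3 libraries Cd274 fell by 1.63 in aPD1_veh and 2.04 in aPD1_lef against IgG_lef on the log2 scale (adjusted p = 0.0102 and 0.00479), and Cd276 and Cd80 rose by 1.35 and 0.60 in aPD1_lef against aPD1_veh (adjusted p = 0.00569 and 0.0226).

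**Figure D4:**
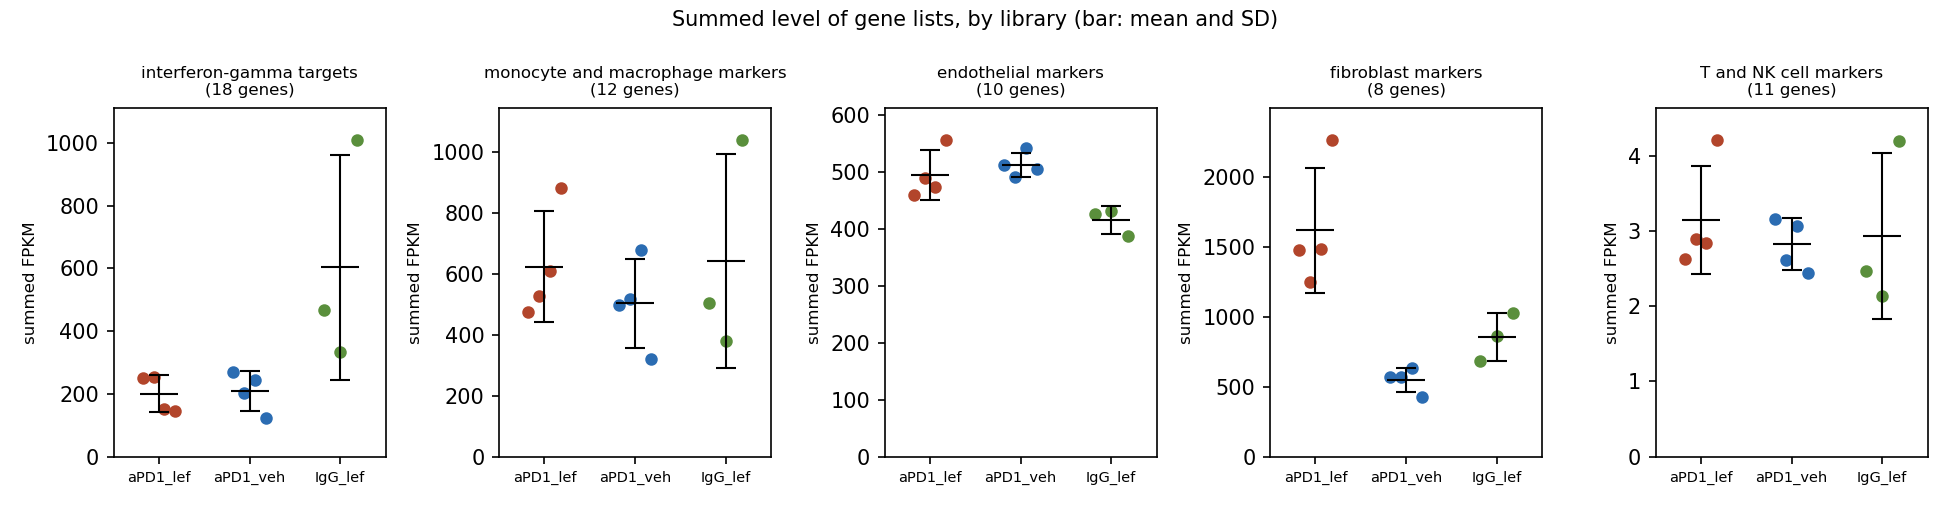
Summed FPKM of 5 gene lists (vertical axes, each from 0) in every library of aPD1_lef, aPD1_veh and IgG_lef, with the mean and SD. Targets of interferon gamma were highest in the 3 IgG_lef libraries (332 to 1011 FPKM), endothelial markers lowest there, and fibroblast markers highest in aPD1_lef.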

How the data were processed

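Per the labels' protocols, heart RNA came from TRIzol extraction and went into NEBNext Ultra libraries. The deposited values, 1 table for the series, were taken as FPKM made by the authors. This unit was inferred, since no label names it: values were not whole, and for 1080 genes detected in a single library log2 value fell with log2 exon length (slope -0.512, SE 0.028). Such a slope shows some dependence on length and does not settle the unit. The submitters' processing notes list HISAT2, DESeq2 and mm10 but give no role or version for them. Of 12 columns, 11 carry the name in a sample's label, and 1 column matched none and was not used, so IgG_lef had 3 libraries. The name of that column differs from the label of the remaining IgG_lef library only in the order of its digits, and whether it holds that library was not settled. Whole reads could not be recovered, so depth and counting error are unknown. At the best of many trial steps, 13.1% to 15.5% of the lowest products of value and exon length lay within 0.05 of a whole number. Chance gives 10% at a single fixed step and more at the best of many. Library totals were 393494 to 465511 FPKM, and libraries of a group correlated across genes at 0.91 to 0.992.

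Genes at 1 FPKM or more in at least 4 libraries (12005) were analysed as log2(FPKM + 1), which understates changes of low genes. One model of the 3 groups was fitted with limma 3.58.1 (trend, robust, statmod 1.5.0) in R 4.3.3, with Benjamini-Hochberg adjustment over all genes of a comparison and a threshold of 0.05. The design planned a count test only for whole read counts. Ratios are of mean FPKM. All 34714 symbols matched RefSeq (GRCm38.p6), and 6 of the 7 ligands had a promoter window. Python 3.11.15 (pandas 2.3.3, NumPy 2.4.6) and matplotlib 3.10.9 served for tables and figures.

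The ligands and the gene lists were chosen with earlier results of these data known. Named were the ligands, their receptors, up to 4 genes of each list with the smallest p, and the genes most like each tested ligand (8 for Cd274 and 3 for each of the others). One of these genes is not reported here. Alternatives were a pseudocount of 0.1, no filter, scaling to one total, quantile and median-ratio scaling, limma without trend or robust weights, only the 2 groups compared, a block for replicate number, and the omission of single libraries or of those with Myl7 above 10.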

Additional observations from a re-analysis of the deposited data

Results flagged for a closer look

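In the groups of 4 libraries, 14 sets of ligand values were examined for a library far from the other 3, and 2 stood out, where chance flags about 1 in 20. Cd276 stood at 6.00 FPKM in aPD1_lef replicate 4, against 3.45 to 3.74 in the other aPD1_lef libraries, and without that replicate the difference from aPD1_veh was 1.04 on the log2 scale (adjusted p = 0.00187). Vsir stood at 17.63 FPKM in aPD1_veh replicate 3, against 10.2 to 11.2 in the other aPD1_veh libraries.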

How the results depend on the processing

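In aPD1_lef against aPD1_veh, Cd276 and Cd80 passed under all 21 alternatives, with adjusted p of 0.00153 to 0.00983 and 0.00399 to 0.0246. All but that with no filter kept the main set of tested genes, which Cd80 entered only through its level in aPD1_lef. With no filter, Cd80 had an adjusted p of 0.011. Scaled to one total, the differences that had not passed changed sign for Cd274 (0.0366) and Vsir (0.12) in that comparison and for Vsir (-0.0282) and Icosl (-0.0465) in aPD1_veh against IgG_lef. Vsir changed sign in aPD1_lef against IgG_lef with quantile (-0.0302) and median-ratio scaling (-0.00011) and without the libraries with Myl7 above 10 (-0.0264). Cd276 passed there when scaled to one total (0.80), which made 2 ligands that passed. Cd274 lost its call with no filter in aPD1_veh against IgG_lef (-1.42) and in a fit of only the 2 groups in aPD1_lef against IgG_lef (-1.51), each leaving 0 ligands that passed. The cause of these changes was not tested.

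Deviations from the group means correlated at r = -0.290 to 0.194 between same-numbered libraries. Differently numbered libraries were not set beside them, so these values cannot decide whether the labels' numbers pair the libraries. With replicate number as a block, Cd274 differed by -1.33 in aPD1_veh and -1.42 in aPD1_lef against IgG_lef and did not pass (adjusted p = 0.0986 and 0.0657), 0 ligands and 0 genes passed in either, and 3602 genes passed in aPD1_lef against aPD1_veh. At unadjusted p under 0.05 the block fit had 1494 and 2830 genes in the comparisons with IgG_lef. Calls over all lists and comparisons numbered 50, and 24 under the block.

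In aPD1_lef against aPD1_veh, 3892 genes passed, 2181 higher and 1711 lower. That split was 3467 and 1124 scaled to one total, 1784 and 2205 with quantile scaling and 1911 and 2212 with median-ratio scaling. In aPD1_veh against IgG_lef 140 passed (29 higher, 111 lower, or 15 and 131 scaled to one total), 92 with no filter and 405 in the fit of 2 groups. In aPD1_lef against IgG_lef 859 passed (618 higher, 241 lower, or 652 and 538 with quantile and 558 and 485 with median-ratio scaling), 277 with no filter, 0 in the fit of 2 groups (2670 at unadjusted p under 0.05) and 2180 without the libraries with Myl7 above 10.

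Leaving out single libraries gave ranges, in log2. In aPD1_lef against aPD1_veh they were -0.20 to 0.0738 for Cd274, 0.33 to 0.62 for Cd86 and -0.10 to 0.15 for Vsir, with 2 to 3 ligands and 2413 to 4316 genes that passed. In aPD1_veh against IgG_lef they were -1.63 to -1.23 for Cd274, -0.32 to 0.0528 for Cd86, -0.11 to 0.13 for Vsir and -0.0433 to 0.14 for Icosl, with 0 to 1 ligands and 3 (without IgG_lef replicate 3) to 478 genes (without aPD1_lef replicate 4). Those of aPD1_lef against IgG_lef were -1.72 to -1.32 for Cd274, 0.54 to 0.92 for Cd276 and -0.0068 to 0.11 for Vsir, with 0 to 2 ligands and 2 (without IgG_lef replicate 1) to 2328 genes (without aPD1_lef replicate 2). The list calls ranged from 30 to 71. Depth is unknown, so Pdcd1lg2 and the receptors under the filter have no counting error.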
